A study of Mus musculus with 24 samples.

Results

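The response of dorsal root ganglia to nerve injury was examined in mice of the strain labelled C57. The samples were chosen by their titles: 4 libraries of ganglia taken 5 days after crush of the sciatic nerve (injured C57) and 4 libraries of ganglia from naive C57 mice, which are 8 of the 24 libraries analysed. The other 16 libraries came from mice labelled CAST and DBA, with 4 injured and 4 naive libraries each, and they were used for the spread and for 1 comparison of responses. The labels give no genotype, transgene, sex or age for these animals, and the treatment protocol speaks of sham injury where the sample labels say naive. The design text counts biological quadruplicates of 9 strains, of which the other 6 were not analysed here. How many animals were pooled in a library is not given in the sources used here.

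A dorsal root ganglion holds the cell bodies of sensory neurons, wrapped by satellite glia, with Schwann cells, fibroblasts, blood vessels and resident macrophages between them. The sciatic nerve carries the peripheral axons of the lumbar ganglia. When those axons are cut or crushed, the neurons are known to switch on injury transcription factors, growth proteins and neuropeptides, to lower many channels and receptors of the mature state, and to regrow their axons. Macrophages and satellite glia of the ganglion are known to react as well.

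RNA levels are given as the authors' FPKM, that is, fragments scaled by gene length in kilobases and by library size. The kilobase term matched the whole genomic span of a gene, introns included, so levels of different genes cannot be compared and only differences within a gene are described. Reads per 1e6 reads (RPM) were recovered from FPKM and span, and a log2 fold change is a difference of log2(RPM + 0.5), injured minus naive, which understates the change of genes with few reads. "Called" means an adjusted p under 0.05 by limma over all 27043 genes tested, with Benjamini-Hochberg adjustment. The p-values measure the spread between libraries labelled as biological quadruplicates.

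The libraries held 51.37 to 124.6 M reads in injured C57, with the lowest total in replicate 3, and 96.0 to 107.58 M reads (M stands for 1e6) in naive C57. Mitochondrial transcripts took 4.17% to 5.88% of the gene reads in injured and 4.67% to 5.43% in naive libraries. On the first principal component, with 65.5% of the variance, a gap set the 4 injured libraries (−39.71 to −30.47) apart from the 4 naive ones (31.88 to 36.2). Naive replicate 1 stood apart from the other naive libraries, with a chi-square per gene of 44.67 to 82.95 against each of them, and all other pairs within a group gave 10.18 to 35.71. Some results that rest on this library or on injured replicate 3 are given with and without them, and other counts also moved.

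Crush was followed by a change of about the same number of genes in each direction, with the large changes mostly upward. Of the genes tested, 5173 (19.1%) rose and 5670 (21.0%) fell. A change of at least 2-fold was found for 679 genes that rose (2.51%) and 145 that fell (0.536%), and the median log2 fold change over all genes was 0.0. These shares are the background for the counts below. Lists and members were chosen with earlier results of these data known, so a list's share is a description and no independent test. Where limma called no member of a list in a direction, voom weights called none either, and at an unadjusted p under 0.05 there was none except 1 injury factor that was lower and 1 identity factor that was higher.

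The promoters shown here belong to 4 genes that rose after crush: Sprr1a, a cornified-envelope protein known to help axons grow, with the largest rise among the genes named here, Nts, the neuropeptide neurotensin, Il6, a cytokine of the gp130 family, and Tnfrsf8, the receptor CD30 of the tumour necrosis factor receptor family. They were chosen because their windows hold TGANTCA, letters known to be bound by AP-1, a dimer that can be made of ATF3 and JUN. The other named genes that rose by at least 2-fold and hold these letters, C3ar1, Cd68, Lipn, P2ry14, Tmem88b and Trem2, are not printed. With them there were 10 such genes, and a choice by the motif is no evidence about it. Each line is the 250 bases before the RefSeq transcription start in GRCm38.p6, written 5′ to 3′ on the strand of the gene, and capitals mark TGANTCA.
Sprr1a promoter, chr3:92485882-92486131, minus strand: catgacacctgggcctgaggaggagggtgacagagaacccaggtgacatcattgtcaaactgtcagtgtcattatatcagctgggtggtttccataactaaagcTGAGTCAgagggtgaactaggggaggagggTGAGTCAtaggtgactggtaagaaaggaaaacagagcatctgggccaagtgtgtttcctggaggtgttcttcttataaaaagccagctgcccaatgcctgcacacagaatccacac
Nts promoter, chr10:102490419-102490668, minus strand: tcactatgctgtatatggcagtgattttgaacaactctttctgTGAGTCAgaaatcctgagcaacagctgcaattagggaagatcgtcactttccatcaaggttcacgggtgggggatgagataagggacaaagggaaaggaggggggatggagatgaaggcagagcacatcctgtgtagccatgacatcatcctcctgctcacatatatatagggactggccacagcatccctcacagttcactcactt
Il6 promoter, chr5:30012864-30013113, plus strand: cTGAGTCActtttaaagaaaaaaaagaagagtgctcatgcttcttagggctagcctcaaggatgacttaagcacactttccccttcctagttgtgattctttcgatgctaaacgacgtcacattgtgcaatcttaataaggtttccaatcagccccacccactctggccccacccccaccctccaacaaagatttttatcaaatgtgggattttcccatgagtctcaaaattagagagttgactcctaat
Tnfrsf8 promoter, chr4:145315165-145315414, minus strand: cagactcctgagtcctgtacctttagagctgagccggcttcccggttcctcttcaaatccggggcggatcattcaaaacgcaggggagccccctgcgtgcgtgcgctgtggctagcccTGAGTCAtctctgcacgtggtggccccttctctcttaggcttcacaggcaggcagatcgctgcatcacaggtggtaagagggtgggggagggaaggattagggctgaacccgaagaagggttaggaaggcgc
The Sprr1a window holds TGANTCA at 146 and at 116 bases before the start, and the windows of Nts, Il6 and Tnfrsf8 hold it once each, at 207, 249 and 132 bases. The motif reads the same on both strands. Counts by gene took a gene as holding the motif if any of its RefSeq promoters did. It was found in 53 of 458 genes (11.6%) that rose by at least 2-fold and in 9 of 95 genes (9.47%) that fell by at least 2-fold. Of all genes tested with a promoter it was found in 1009 of 15351 (6.57%). Counted by single promoter, which is another measure, it was found in 2217 of 32851 RefSeq promoters (6.75%). TGACGTCA, the letters known for CREB and ATF dimers, was found in 9 of the 458 (1.97%) and 1 of the 95 (1.05%), against 388 of the 15351 (2.53%). Of the 15 largest rises that could be named, 11 had a promoter in the table and only Sprr1a held TGANTCA within the window. A match is a description of letters, and no binding was measured.

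Injury-induced transcription factors rose together. Of 29 measured, 19 rose and none fell, and 9 rose by at least 2-fold (median log2 fold change 0.40). Atf3, a stress-induced factor of injured neurons, had 20.8, 17.5, 18 and 16.1 FPKM in the 4 injured libraries and 0.349, 0.289, 0.268 and 0.247 FPKM in the 4 naive ones. The groups were far apart, and the lowest injured library was far above the highest naive one. The ratio of the means was 62.9 and the log2 fold change 5.93 (SE 0.13, adjusted p = 2.44e-19, limma). Sox11, a factor of developing neurons, averaged 13.8 ± 2.08 FPKM in injured and 1.67 ± 0.316 FPKM in naive ganglia (SD, n = 4 each), which is 8.24-fold. Jun, the partner of ATF3 in AP-1, averaged 49 ± 4.36 and 18.9 ± 2.06 FPKM in injured and naive ganglia. Nfil3, a repressor that competes with CREB, rose 4.15-fold, and the growth-promoting factor Klf6 rose 2.78-fold. Reads of Jun cannot be told apart from those of an antisense transcript that overlaps its exons. The use of strand in counting is not given in the sources used here. Exons of many other genes named below also overlap another annotated gene, and not all are marked. Among them are Gadd45a, Cdkn1a, Fst, Gfra1, Plxna4, Ina, Tuba4a, Cyp24a1 and Avil. Immediate early genes that respond to handling of the tissue rose as well. Of 14, 7 rose and none fell, and their summed level was 417 to 503 RPM in injured and 276 to 334 in naive libraries. They include Fos, which rose 1.88-fold, and Dusp1, a phosphatase, which rose 1.66-fold, and 5 of them are also on the injury list. Their part in the result was not tested.

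Growth-associated genes moved the same way. Of 31, 25 rose, 12 of them by at least 2-fold, and 2 fell, with a median log2 fold change of 0.72. Sprr1a had 510, 460, 451 and 424 FPKM in injured libraries and 1.29, 0.318, 0.473 and 0.483 FPKM in naive ones. Naive replicate 1 was the highest naive library, and still far below every injured library. The log2 fold change was 9.11 (SE 0.26, adjusted p = 5.01e-16, limma). Ecel1, a neuronal endopeptidase induced by nerve damage, had 6.92, 5.27, 5.11 and 5.06 FPKM in injured libraries and 0.0715, 0.0304, 0.0369 and 0.0535 FPKM in naive ones, a ratio of 116. Lmo7, a protein that links cell adhesions to actin, averaged 0.211 ± 0.0187 FPKM in injured and 0.00944 ± 0.000809 FPKM in naive ganglia (SD, n = 4 each), which is 22.4-fold. Gap43, the protein of growth cones, rose 3.91-fold, and Stmn2, which binds tubulin in growing axons, rose 1.80-fold. Basp1, a membrane protein related in role to Gap43, rose 1.65-fold. Dpysl2, which carries semaphorin signals to microtubules, fell to 0.839 of its naive mean. Dclk1, a microtubule-associated kinase, was the other gene that fell, with groups that overlapped (0.278, 0.288, 0.307 and 0.307 FPKM in injured and 0.286, 0.358, 0.364 and 0.321 FPKM in naive libraries), and its call was lost without injured replicate 1 or 2 or naive replicate 2 or 3 (adjusted p = 0.0801 to 0.148).

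Tubulins and intermediate filaments changed in both directions. Among 15 tubulin genes, 9 rose and 5 fell. Tubb6, a beta-tubulin known to be induced by nerve injury, averaged 10.4 ± 0.959 FPKM in injured and 1.85 ± 0.0951 FPKM in naive ganglia (SD, n = 4 each), a 5.66-fold rise. Tubb2b, an isotype of developing neurons, rose 2.22-fold, Tubb2a rose 1.90-fold, and the pan-neuronal Tubb3 rose 1.66-fold. Tubb2a and Tubb2b are near-identical copies, and how reads that map to both were counted is not given in the sources used here. Tuba4a, an alpha-tubulin, fell to 0.720 of its naive mean, and Tuba8 fell to 0.556. Among 8 intermediate filaments the large neurofilament subunits fell. Nefh, the heavy subunit, had 150, 160, 149 and 177 FPKM in injured libraries and 236, 290, 278 and 261 FPKM in naive ones, with no overlap. The medium subunit Nefm fell to 0.680 and the light subunit Nefl to 0.702 of the naive mean. Exons of Nefm and Nefl overlap in the annotation, so that their reads may not be wholly separate. Vim rose 1.47-fold and Ina, the internexin of developing neurons, rose 1.45-fold. Prph, the filament of small sensory neurons, averaged 202 ± 23.6 FPKM in injured and 195 ± 17.9 FPKM in naive ganglia, and the groups overlapped (log2 fold change 0.05, SE 0.07, adjusted p = 0.608, limma).

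**Figure D1:**
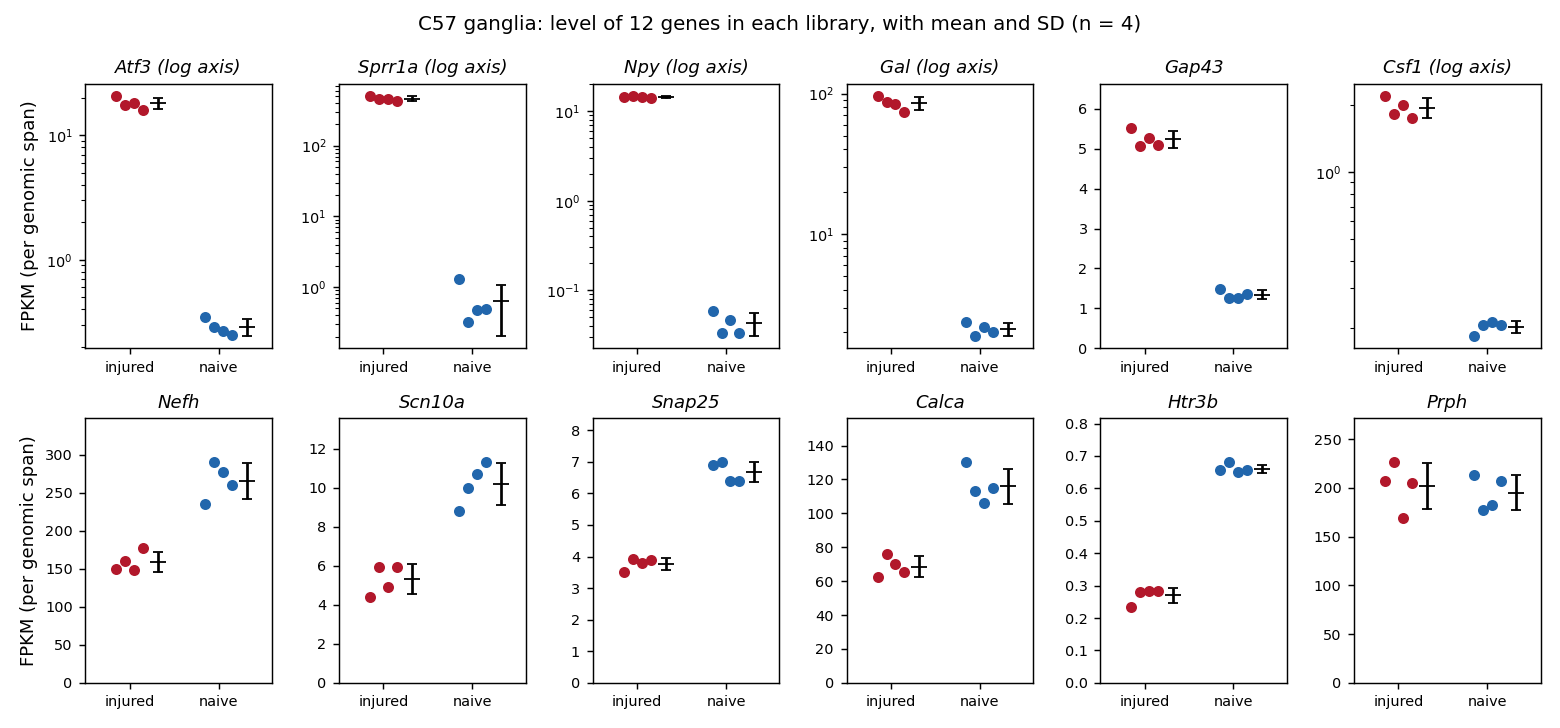
FPKM per genomic span of 12 genes in each C57 library (points), injured on the left and naive on the right, with the mean and SD of 4 libraries (black); panels with a ratio above 9 have a log axis. The groups separate for every gene shown except Prph, whose injured and naive points overlap.

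Neuropeptides associated with injury rose strongly. Of 12 measured, 8 rose, 7 of them by at least 2-fold, and 3 fell (median log2 fold change 1.45). Npy, neuropeptide Y, had 14.6, 15, 14.5 and 14.2 FPKM in injured libraries and 0.0582, 0.0333, 0.0466 and 0.0328 FPKM in naive ones. The injured libraries were close to each other, and the naive ones held only 22 to 38 estimated reads. The ratio was 341 (log2 fold change 6.98, SE 0.20, adjusted p = 9.68e-17, limma). Gal, galanin, had 96.6, 87.1, 83.7 and 74.4 FPKM in injured libraries and 2.37, 1.88, 2.18 and 2.02 FPKM in naive ones, a ratio of 40.5. Crh, corticotropin-releasing hormone, rose 117-fold by the means (log2 fold change 4.16), from only 6 to 12 estimated reads in naive libraries. Nts rose 15.3-fold. Adcyap1, which encodes PACAP, averaged 24.9 ± 2.02 FPKM in injured and 10.7 ± 1.17 FPKM in naive ganglia (SD, n = 4 each), a 2.33-fold rise. The peptides that fell were Cartpt, to 0.576 of the naive mean, Nmb (neuromedin B), to 0.526, and Nmu (neuromedin U), to 0.565. Exons of Nmb overlap those of Sec11a on the same strand.

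Peptides of uninjured nociceptors went down. Of 9 sensory peptides, 5 fell (55.6%) and 2 rose (22.2%, near the 19.1% of all genes). Calca, which encodes the vasodilator CGRP, had 62.2, 76.3, 70.4 and 65.3 FPKM in injured libraries and 130, 113, 106 and 115 FPKM in naive ones. Every injured library was below every naive one, and the log2 fold change was −0.76 (SE 0.07, adjusted p = 3.87e-09, limma). Its paralogue Calcb fell to 0.549 of the naive mean, Tac1, the substance P precursor, to 0.551, and Sst, somatostatin, to 0.544. Calca and Calcb are similar in sequence, and the counting of shared reads is not given in the sources used here. Grp, gastrin-releasing peptide, rose, from low reads: it had 43 to 119 estimated reads in injured and 2 to 4 in naive libraries.

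Receptors of peptides changed in both directions, 10 higher and 12 lower of 27. Cckbr, a cholecystokinin receptor, had 1.02, 0.890, 0.938 and 0.880 FPKM in injured libraries and 0.0103, 0.00593, 0.00680 and 0.00969 FPKM in naive ones, a ratio of 114. Gpr151, an orphan receptor known from habenular neurons, averaged 61.1 ± 5.98 FPKM in injured and 0.72 ± 0.297 FPKM in naive ganglia (SD, n = 4 each), a ratio of 84.9. Cckar, the other cholecystokinin receptor, rose 2.96-fold. The neuropeptide Y receptors Npy1r and Npy2r rose 1.41-fold and 1.47-fold. Oprd1, the delta opioid receptor, averaged 0.174 ± 0.0206 FPKM in injured and 0.439 ± 0.0763 FPKM in naive ganglia, and Galr1, a galanin receptor, averaged 0.168 ± 0.0334 and 0.358 ± 0.0991 FPKM. Both fell without overlap between the groups.

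Voltage-gated sodium channels were mostly lower. Of 13 subunits, 11 fell and none rose, with a median log2 fold change of −0.61. Scn10a, the channel Nav1.8 of nociceptors, had 4.41, 5.94, 4.90 and 5.94 FPKM in injured libraries and 8.81, 10, 10.7 and 11.3 FPKM in naive ones. No injured library reached the naive range (log2 fold change −0.95, SE 0.12, adjusted p = 1.49e-06, limma). Its neighbour in function, Scn11a (Nav1.9), fell to 0.522 of its naive mean, Scn9a (Nav1.7) to 0.694, and Scn1a (Nav1.1) to 0.487, which was the one subunit past 2-fold. Scn3a, the embryonic channel Nav1.3, averaged 0.0492 ± 0.00227 FPKM in injured and 0.0497 ± 0.0113 FPKM in naive ganglia, with overlapping groups (log2 fold change 0.01, SE 0.10, adjusted p = 0.952, limma).

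Potassium channels fell in the majority, 38 lower and 7 higher of 57, with a median log2 fold change of −0.57. Without injured replicate 1, 3 rose, and without injured replicate 4, 4 rose. Kcnk18, the channel TRESK that damps nociceptor firing, averaged 0.321 ± 0.0538 FPKM in injured and 0.613 ± 0.0482 FPKM in naive ganglia (SD, n = 4 each). Kcna2, a channel of the region beside the node of Ranvier, had 4.08, 4.77, 3.68 and 5.48 FPKM in injured libraries and 5.5, 13.6, 16.5 and 9.93 FPKM in naive ones. Naive replicate 1 lay just above the highest injured library and the other naive libraries far above it. Kcng3 and Kcnh5 fell to 0.257 and 0.263 of the naive mean, again with the lowest naive values in replicates 1 and 4. Kcnk16, a background channel known from pancreatic islets, rose, with 0.905, 0.784, 0.765 and 0.808 FPKM in injured and 0.0276, 0.0145, 0.0144 and 0.0160 FPKM in naive libraries, a ratio of 45.1. Kcnmb4, an auxiliary subunit of the large-conductance channel, rose 2.12-fold. Of 20 calcium channel subunits 4 rose and 7 fell. Cacna2d1, the subunit bound by gabapentin, had 0.324, 0.263, 0.336 and 0.294 FPKM in injured libraries and 0.0782, 0.0934, 0.110 and 0.0896 FPKM in naive ones, a 3.28-fold rise. Cacna2d4 rose 2.91-fold, and Cacna1i, a low-threshold channel, fell to 0.489 of its naive mean.

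Genes of sensory transduction, receptors and release were mostly lower. Among 37 transduction genes 24 fell (64.9%) and 8 rose (21.6%, near the 19.1% of all genes). Mrgprx1, an itch receptor, averaged 0.993 ± 0.176 FPKM in injured and 2.46 ± 0.121 FPKM in naive ganglia (SD, n = 4 each). Htr3b, a serotonin-gated channel subunit, had 0.235, 0.281, 0.282 and 0.284 FPKM in injured libraries and 0.656, 0.680, 0.652 and 0.656 FPKM in naive ones, with no overlap. The cold receptor Trpm8 fell to 0.451 of its naive mean. The heat and capsaicin receptor Trpv1 averaged 1.58 ± 0.0350 and 1.76 ± 0.134 FPKM in injured and naive ganglia and was not called (adjusted p = 0.0615, limma). It was called without naive replicate 1 (adjusted p = 0.0266) or 2 (adjusted p = 0.0487), and without naive replicate 1 and injured replicate 3 (adjusted p = 0.0475). Trpv1 was also called with a pseudocount of 1 FPKM, a filter of 1 RPM and median-of-ratios scaling (adjusted p = 0.0435, 0.0466 and 0.0491, limma). Piezo2, the touch channel, was at 0.781 of its naive mean with overlapping groups (adjusted p = 0.0132, limma), a call that was lost without naive replicate 3 (adjusted p = 0.0668). Of 34 receptors of GABA and glutamate 22 fell (64.7%) and 6 rose (17.6%, near the 19.1% of all genes). Grik1 and Gria2, subunits of kainate and AMPA receptors, fell to 0.502 and 0.467 of the naive mean, and the GABA-A subunits Gabrg1 and Gabra5 rose 2.44-fold and 2.21-fold. Of 40 genes of synaptic vesicles and release 30 fell and 4 rose (2 without injured replicate 3), none of them by 2-fold. Snap25, a core fusion protein, had 3.50, 3.91, 3.81 and 3.88 FPKM in injured libraries and 6.90, 6.98, 6.39 and 6.38 FPKM in naive ones. Vamp1 and Cplx2, which act with it, fell to 0.542 and 0.523 of the naive mean. Syt4, a synaptotagmin that does not bind calcium in the usual way, rose 1.5-fold, and Syn1 averaged 3.96 ± 0.236 and 3.81 ± 0.142 FPKM in injured and naive ganglia with overlap.

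Transcription factors that define sensory neuron classes fell and none rose, 18 of 24, with a median log2 fold change of −0.47. Hoxd1, a factor of nociceptors, had 2.09, 3.44, 3.06 and 3.32 FPKM in injured libraries and 7.35, 6.71, 7.32 and 6.91 FPKM in naive ones. Mafa and Etv1, factors of mechanoreceptor and proprioceptor classes, fell to 0.414 and 0.411 of the naive mean. Isl1 and Pou4f1, which mark sensory neurons in general, fell to 0.706 and 0.737, and Runx1, the factor of non-peptidergic nociceptors, fell to 0.746. The label of the tissue was matched by its markers: all 12 markers of sensory neurons were present in every library, of which 6 fell and 3 rose. Avil averaged 18.9 ± 1.43 FPKM in injured and 17.8 ± 0.722 FPKM in naive ganglia, and was not called (adjusted p = 0.245, limma), but was without injured replicate 3 (adjusted p = 0.035). In RNA of whole ganglia, fewer cells of a type and less RNA per cell cannot be told apart. Of 32 motor proteins of axonal transport, 14 fell and 3 rose, and without naive replicate 1 and injured replicate 3, 19 fell and 4 rose.

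Among the largest falls outside the lists were Vstm2b, an immunoglobulin-domain membrane protein, which fell to 0.299 of its naive mean, and Thrsp, a regulator of fat synthesis, which fell to 0.327. Fndc5, the precursor of irisin, averaged 2.11 ± 0.280 FPKM in injured and 5.72 ± 0.503 FPKM in naive ganglia (SD, n = 4 each). Lgi3, a secreted protein related to the epilepsy gene Lgi1, had 6, 7.76, 6.59 and 7.36 FPKM in injured libraries and 18.6, 19.2, 16.9 and 17.9 FPKM in naive ones. These groups lay well apart. Nmur1, a receptor of neuromedins, fell to 0.364 of its naive mean. Dgkh, a diacylglycerol kinase, and Lnpep, an aminopeptidase, fell to 0.383 and 0.238. Lnpep had 0.187, 0.213, 0.152 and 0.189 FPKM in injured libraries and 0.220, 1.17, 1.29 and 0.429 FPKM in naive ones, and its call was lost when the C57 libraries were fitted alone (adjusted p = 0.0588). Among large rises outside the lists were Slc6a4, the serotonin transporter, with a ratio of 142, Fgf3, a growth factor of the embryo, with a ratio of 54, and Sez6l, a neuronal membrane protein, with a ratio of 16.4. Slc6a4 had 0.514, 0.460, 0.466 and 0.403 FPKM in injured libraries and 0.00290, 0.00314, 0.00407 and 0.00283 FPKM in naive ones, where it rested on 9 to 13 estimated reads.

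**Figure D2:**
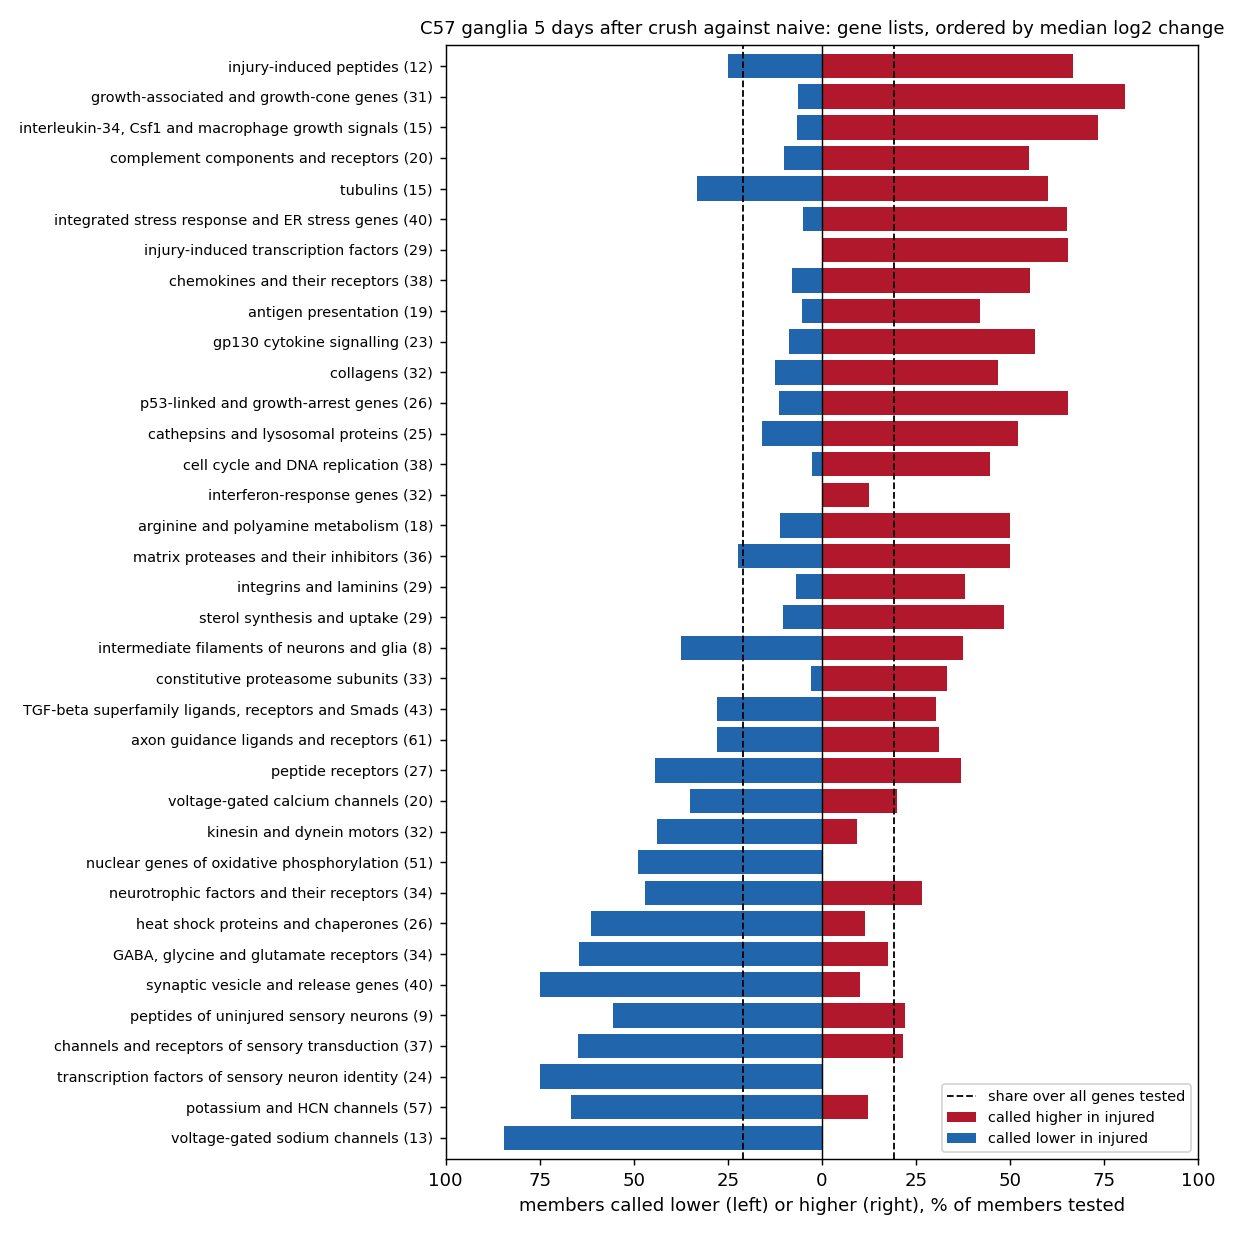
Share of the tested members of 36 gene lists called higher (red, to the right) or lower (blue, to the left) in injured against naive C57 ganglia, in percent, with the number tested in brackets; dashed lines mark the share over all genes tested, 19.1% higher and 21.0% lower. Lists of growth, injury factors and macrophage signals lie far to the right and lists of sodium channels, synaptic genes and identity factors far to the left. The lists were chosen with earlier results of these data known.

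Trophic factors and their receptors split. Of 34, 9 rose and 16 fell. Gfra1 and Gfra3, the receptors of GDNF and artemin, had separate groups: Gfra1 averaged 0.360 ± 0.0212 FPKM in injured and 0.133 ± 0.00410 FPKM in naive ganglia, and Gfra3 averaged 3.51 ± 0.171 and 1.70 ± 0.103 FPKM (SD, n = 4 each). Gfra2, the receptor of neurturin, fell to 0.536 of its naive mean. Bdnf, a neurotrophin of sensory neurons, averaged 0.0866 ± 0.00642 and 0.0843 ± 0.00594 FPKM in injured and naive ganglia and was not called (adjusted p = 0.726, limma).

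Cytokine signalling through gp130 was mostly higher, with 13 of 23 genes that rose and 2 that fell. Clcf1, a ligand of the CNTF receptor complex, had 0.267, 0.227, 0.222 and 0.263 FPKM in injured libraries and 0.0606, 0.0634, 0.0635 and 0.0679 FPKM in naive ones, a 3.84-fold rise. Exons of Clcf1 overlap another annotated gene on the same strand. Il6 had 0.185, 0.198, 0.134 and 0.170 FPKM in injured libraries and 0.0184, 0.00303, 0.0345 and 0.0164 FPKM in naive ones, which are 47 to 169 and 2 to 23 estimated reads. Lif averaged 0.0248 ± 0.00274 and 0.0166 ± 0.00611 FPKM in injured and naive ganglia with overlapping groups, and its call (adjusted p = 0.0244, limma) was lost without injured replicate 1 (adjusted p = 0.0795) or naive replicate 3 (adjusted p = 0.126).

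Genes of TGF-beta, activin and BMP signalling went both ways, 13 higher and 12 lower of 43. Without naive replicate 1 and injured replicate 3, 13 were higher and 15 lower. Fst, follistatin, which binds and blocks activins, had 6.34, 5.45, 6.67 and 5.24 FPKM in injured libraries and 0.338, 0.365, 0.472 and 0.299 FPKM in naive ones, a 16.1-fold rise. Inhbb, a subunit of activin B, rose 7.96-fold, and Acvr1c, the receptor ALK7, rose 12.9-fold, with 71 to 140 estimated reads in injured and 6 to 14 in naive libraries. Tgfb1 rose 2.14-fold. Nog, noggin, which blocks BMPs, fell to 0.360 of its naive mean, and Id1, a target gene of BMP signals, fell to 0.458. Inhba, the subunit of activin A, had 0.00763, 0.0123, 0.00762 and 0.0134 FPKM in injured libraries and 0.00668, 0.0128, 0.0116 and 0.00794 FPKM in naive ones, at 8 to 30 and 13 to 25 estimated reads. The groups overlapped (log2 fold change 0.02, SE 0.08, adjusted p = 0.888, limma).

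Guidance genes were divided, with 19 of 61 higher and 17 lower. Without naive replicate 1 and injured replicate 3, 15 were higher and 20 lower. Sema6a, a membrane semaphorin, averaged 0.220 ± 0.0242 FPKM in injured and 0.0238 ± 0.00220 FPKM in naive ganglia, a 9.24-fold rise, and Plxna4, a receptor of semaphorins, rose 2.42-fold. Epha3 rose 3.10-fold, Sema7a fell to 0.505 of its naive mean, and Robo2 fell to 0.736. Of 29 integrins and laminins 11 rose and 2 fell. Itga7, a laminin receptor of regenerating neurons, had 40.3, 33.5, 33.6 and 33.6 FPKM in injured libraries and 6.45, 6.99, 6.88 and 7.66 FPKM in naive ones. Injured replicate 1 was the highest, and the groups did not overlap (ratio 5.04, log2 fold change 2.33, SE 0.06, adjusted p = 8.41e-19, limma). Itgb1, its partner, rose 1.73-fold, and Lamb3, a laminin chain, rose 26-fold, from 18 to 38 estimated reads in naive libraries. Of 36 matrix proteases and their inhibitors 18 rose and 8 fell, and without naive replicate 1 and injured replicate 3, 15 rose and 11 fell. Mmp16, a membrane-bound metalloproteinase, rose 9.28-fold, Adam8 rose 7.97-fold, and Timp1 rose 1.87-fold. Of 32 collagens 15 rose and 4 fell, and without naive replicate 1 and injured replicate 3 only 9 rose. Col5a3 rose 4.22-fold. Col1a1 averaged 7.35 ± 0.698 FPKM in injured and 4.81 ± 1.58 FPKM in naive ganglia, and its call (adjusted p = 0.0064, limma) was lost without those libraries (adjusted p = 0.0747).

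Stress responses of several kinds were higher. Of 40 genes of the integrated stress and unfolded protein responses, 26 rose and 2 fell. Chac1, which degrades glutathione, had 8.63, 7.41, 7.10 and 5.38 FPKM in injured libraries and 1.92, 1.52, 1.27 and 1.43 FPKM in naive ones, a 4.64-fold rise. Atf4, the factor that drives this response, rose 1.45-fold, Sesn2 rose 2.66-fold, and Ddit3 rose 1.24-fold. Exons of Ddit3 overlap another annotated gene of the same name on the same strand, and Mars on the opposite strand. Of 26 p53 targets and cell death genes 17 rose and 3 fell. Gadd45a, a growth arrest gene, averaged 19.8 ± 2.02 FPKM in injured and 2.32 ± 0.377 FPKM in naive ganglia (SD, n = 4 each), Cdkn1a (p21) rose 4.40-fold, and the death-promoting BH3 proteins Pmaip1 and Hrk rose 6.81-fold and 6.46-fold. Bcl2, which counters such proteins, fell to 0.633 of its naive mean.

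Heat shock genes were mostly lower, 16 of 26, with 3 higher. Hspb1, a small heat shock protein that protects injured neurons, was one that rose, 1.87-fold, and Hsph1 fell to 0.591 of its naive mean. Hspa1a and Hspa1b, near-identical inducible copies, had no overlap between groups. Hspa1a had 5.47, 7.46, 4.16 and 5.08 FPKM in injured and 8.78, 16.3, 8.73 and 7.83 FPKM in naive libraries, and its call (adjusted p = 0.0129, limma) was lost without naive replicate 2 (adjusted p = 0.0601), its highest library.

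Among metabolic genes, 9 of 18 in polyamine and arginine metabolism rose and 2 fell. Odc1, the first enzyme of polyamine synthesis, had 13, 11.6, 12 and 11.2 FPKM in injured libraries and 5.54, 5.27, 4.97 and 5.11 FPKM in naive ones, a 2.29-fold rise. Arg1, which makes ornithine, rose 4.10-fold at a low level, and Ass1 fell to 0.546 of its naive mean. Of 29 sterol genes 14 rose and 3 fell, with Hsd17b7, an enzyme of cholesterol synthesis, at 3.12-fold. None of 51 nuclear genes of oxidative phosphorylation rose and 25 fell, by little: Sdha was at 0.872 and Ndufb3 at 0.750 of the naive mean. Without naive replicate 1, 13 fell and 1 rose, and without naive replicate 1 and injured replicate 3, 12 fell and 2 rose. Of 33 proteasome subunits 11 rose, among them Psmd11 at 1.31-fold, and 1 fell, and of 25 cathepsins and lysosomal genes 13 rose and 4 fell.

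Macrophage markers were higher in injured ganglia. Of 20, 19 rose, 17 of them by at least 2-fold (median log2 fold change 1.66), and Lgmn fell to 0.771 of its naive mean. The summed level of the list was 525 to 588 RPM in injured and 309 to 330 in naive libraries. C1qc, a complement subunit made by macrophages, had 7.48, 6.81, 7.28 and 6.31 FPKM in injured libraries and 1.20, 1.21, 1.04 and 1.02 FPKM in naive ones. Mrc1, a mannose receptor of resident macrophages, rose 5.53-fold, Trem2, a lipid receptor of phagocytes, rose 7.14-fold, and Aif1 rose 2.91-fold. Csf1, the growth factor of macrophages that injured sensory neurons are known to make, had 2.21, 1.83, 2.01 and 1.76 FPKM in injured libraries and 0.183, 0.206, 0.211 and 0.205 FPKM in naive ones, a 9.70-fold rise. Its receptor Csf1r, whose exons overlap those of Hmgxb3, rose 4.32-fold, and Il34, the other ligand, rose 1.20-fold. Together 11 of 15 genes of macrophage signals rose and 1 fell.

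Chemokines and their receptors rose in 21 of 38 cases and fell in 3, with 11 past 2-fold. Ccl8 had 2.99, 2.65, 3.13 and 2.72 FPKM in injured libraries and 0.0516, 0.128, 0.0886 and 0.0690 FPKM in naive ones, a ratio of 34.1. Ccl7 rose 7.79-fold and Ccl2, which draws in monocytes, rose 2.85-fold. These are close paralogues, and the counting of shared reads is not given in the sources used here. Of 19 antigen presentation genes 8 rose and 1 fell, and 5 rose without naive replicate 2 or 3. Cd74, the chaperone of MHC class II, averaged 3.70 ± 0.0761 FPKM in injured and 1.5 ± 0.160 FPKM in naive ganglia, and the class II chains H2-Ab1, H2-Eb1 and H2-Aa rose 2.36-fold, 2.34-fold and 2.35-fold. Of 20 complement genes 11 rose and 2 fell, with C3, the central component, at 3.63-fold, and Cd55, which protects cells from complement, at 0.497 of its naive mean. Of 32 interferon-stimulated genes 4 rose (12.5%, below the 19.1% of all genes) and none fell. The count of 4 was 7 without injured replicate 1 or 2, 2 without injured replicate 4, and 1 with a pseudocount of 1 FPKM. Oas2 was one of these, at 0.0840 ± 0.0205 FPKM in injured and 0.0315 ± 0.00993 FPKM in naive ganglia. Isg15, a ubiquitin-like modifier, had 1.74, 2.15, 2.52 and 3.35 FPKM in injured libraries and 2.28, 2.36, 1.61 and 3.56 FPKM in naive ones, which overlapped (log2 fold change 0.01, SE 0.22, adjusted p = 0.987, limma). The summed level of the interferon list was 213 to 354 RPM in injured and 224 to 305 in naive libraries, which overlapped. The macrophage sums given above rose, as did most called genes of the chemokine, antigen presentation and complement lists. The part of macrophages in the result was not tested.

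Of 38 cell cycle genes 17 rose and 1 fell. Top2a averaged 0.0781 ± 0.0148 FPKM in injured and 0.0378 ± 0.0109 FPKM in naive ganglia, and Mki67 averaged 0.188 ± 0.0564 and 0.128 ± 0.0516 FPKM with overlapping groups (adjusted p = 0.121, limma). Without naive replicate 3, its highest naive library, Mki67 was called (log2 fold change 0.72, adjusted p = 0.0326).

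The other lists of cell markers had median log2 fold changes from −0.29 to 0.96, below that of the macrophage list. Of 17 markers of myelinating Schwann cells 3 rose (17.6%, near the 19.1% of all genes). Their sums were 2170 to 2240 RPM in injured and 1960 to 2320 in naive libraries. Of 12 repair Schwann cell markers 4 rose and 3 fell. Gfap, a filament of reactive glia, averaged 0.181 ± 0.0301 FPKM in injured and 0.0486 ± 0.0139 FPKM in naive ganglia, a 3.73-fold rise. Of 12 satellite glia markers 3 rose, among them Glul, glutamine synthetase, at 1.47-fold, and 1 fell, which was S100b at 0.692 of its naive mean. Exons of Glul overlap those of Teddm2. Fibroblast sums were 556 to 718 and 351 to 577 RPM in injured and naive libraries, and 7 of 14 markers rose. Without injured replicate 3, naive replicate 1 or naive replicate 4, 4 rose, and without injured replicate 3 and naive replicate 1 together, 2 rose. Of 11 neutrophil markers 2 rose (18.2%, again near the share of all genes), with sums of 26.2 to 65.0 and 4.54 to 24.8 RPM. One of them was Ly6g, with 1.07, 1.14, 0.770 and 0.960 FPKM in injured and 0.183, 0.322, 0.0799 and 0.0817 FPKM in naive libraries, whereas S100a8 was not called (adjusted p = 0.141, limma). Of 14 markers of T and NK cells 5 rose and 1 fell (3 rose without injured replicate 1). Of 13 markers of endothelium and mural cells 1 rose (7.69%) and 2 fell (15.4%). Markers of skeletal muscle, red blood cells and mast cells held no call by limma. Red cell sums were 455 to 913 and 484 to 939 RPM in injured and naive libraries. The sum over adipocyte markers was 44 to 53.3 and 3.15 to 11.2 RPM, and Car3 was the only member called: it averaged 46.5 RPM in injured and 2.82 in naive ganglia, and the adipocyte hormone Adipoq averaged 0.139 and 0.187.

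**Figure D3:**
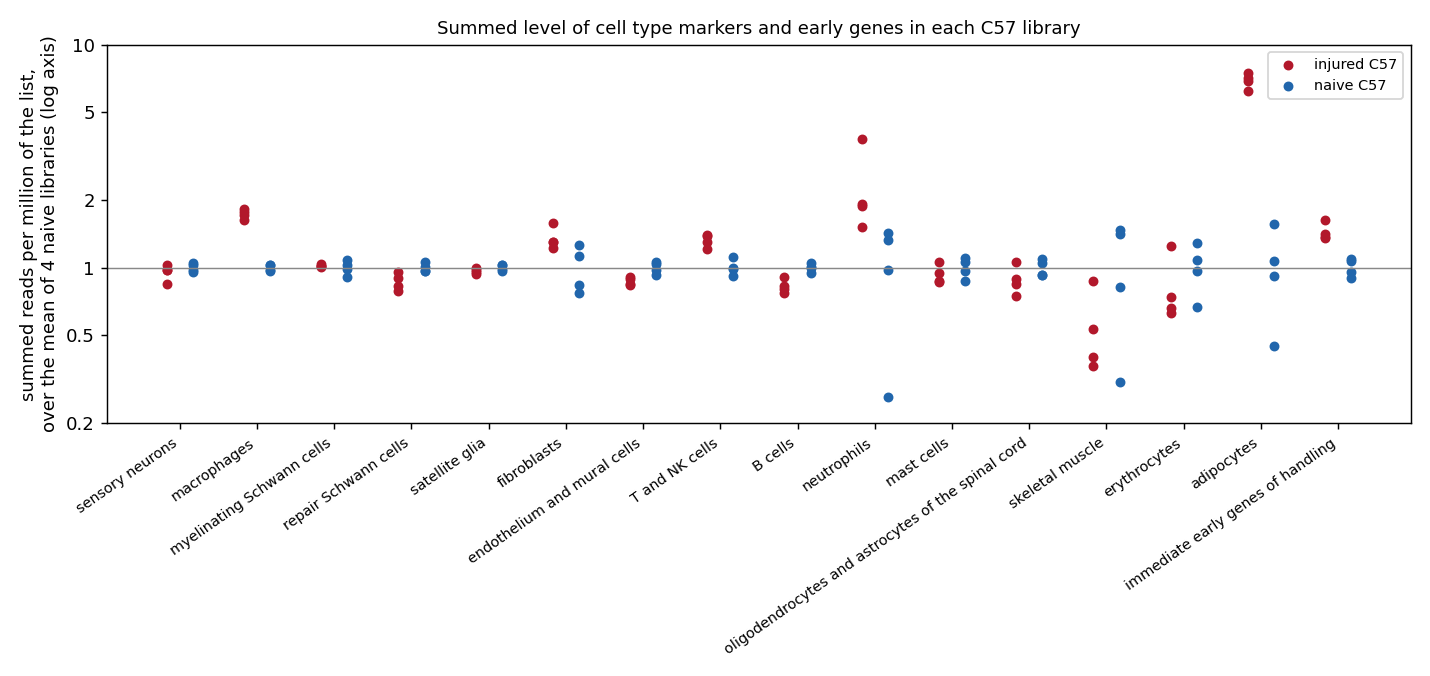
Summed RPM of 16 lists of cell type markers and early genes in each C57 library, divided by the mean of the 4 naive libraries (log axis), with injured libraries in red on the left of each pair and naive ones in blue. Macrophage sums of the injured libraries lie above every naive library, and myelinating Schwann cell sums overlap.

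Whether the C57 response differed from that of the other strains was tested as an interaction, the C57 log2 fold change minus the mean of those of CAST and DBA. The response was higher in C57 for 1098 genes (4.06%) and lower for 1532 (5.67%). Reads of all strains were aligned to mm10, which is a C57BL/6J genome, and the effect of that on the strain levels was not tested.

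Of the genes with a higher log2 fold change in C57 than in the mean of CAST and DBA, some exceeded both strains and others exceeded CAST alone. Sprr2a1, a small proline-rich protein of the cornified envelope, had 1.24, 1.07, 1.39 and 1.18 FPKM in injured C57 libraries and 0.0157, 0.0325, 0.0369 and 0.0224 FPKM in naive ones. In C57, CAST and DBA its log2 fold changes were 3.58, 0.20 and 2.54, and the difference of 2.21 (SE 0.10) had an adjusted p of 8.67e-13 by limma and of 0.504 with voom weights. Sprr2a1 has near-identical copies, so its reads may be shared with them. Tnfrsf8 had 194 to 444 estimated reads in injured and 2 to 7 in naive C57 libraries. In the same order its log2 fold changes were 2.98, 0.66 and 1.22, and it differed from each strain (adjusted p = 3.4e-13 and 9.64e-11, limma). Tmem88b, a membrane protein related to a Wnt inhibitor, averaged 7.72 ± 1.04 FPKM in injured and 0.617 ± 0.158 FPKM in naive C57 ganglia, with log2 fold changes of 3.43, 1.68 and 1.54 in C57, CAST and DBA. Lrat, which stores retinol as esters, had log2 fold changes of 1.94, −0.08 and 1.21 in that order. Car3, a carbonic anhydrase abundant in muscle and fat, had 5.44, 4.64, 5.54 and 5.01 FPKM in injured and 0.182, 0.443, 0.255 and 0.372 FPKM in naive C57 libraries, and log2 fold changes of 3.88, −0.44 and 2.3. It differed from CAST (adjusted p = 9.06e-05, limma) and not by the test from DBA (adjusted p = 0.15). Gpr151 likewise differed from CAST (5.98 against 3.41 on the log2 scale) and was not called against DBA (5.57, adjusted p = 0.251, limma), nor was Kcnk16 (3.42 in C57, 1.15 in CAST and 3.21 in DBA, adjusted p = 0.342 against DBA). Cyp24a1, which degrades vitamin D, and Lipn, a lipase of the epidermis, had log2 fold changes of 3.05, 0.20 and 3.40 (Cyp24a1) and 3.29, 0.35 and 3.75 (Lipn) in that order. They thus exceeded CAST and fell below DBA, each by a test of that difference (Cyp24a1 adjusted p = 2.37e-16 and 0.0113, Lipn adjusted p = 2.37e-16 and 0.00152, limma). The difference of Cyp24a1 from the mean of both strains had an adjusted p of 0.647 with voom weights. Lipn had at most 2 estimated reads in a naive C57 library.

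Other named genes had a lower log2 fold change in C57 than in the mean of CAST and DBA, for most of them a smaller rise. The rule for strain differences admitted only genes called in C57, so that pattern follows in part from the choice. Gal had log2 fold changes of 5.27, 6.96 and 7.23 in C57, CAST and DBA, and the C57 response was lower than each (adjusted p = 0.000167 and 5.63e-05, limma). Injured ganglia averaged 85.5 ± 9.18 FPKM of Gal in C57, 286 ± 33.5 FPKM in CAST and 340 ± 11.7 FPKM in DBA (SD, n = 4 each), and naive ganglia averaged 2.11 ± 0.213, 2.34 ± 1.15 and 2.16 ± 0.259 FPKM in that order. Gfap had log2 fold changes of 1.36, 3.43 and 3.63 in C57, CAST and DBA. Tubb6 (2.47, 3.18 and 3.69) and Adcyap1 (1.22, 2.41 and 2.27) also rose less in C57 than in either strain. So did Tnc, tenascin-C of the matrix (1.02, 2.18 and 2.81), Cxcl14, a chemokine (1.22, 2.17 and 3.50), Tnfaip6, a hyaluronan-binding protein of inflammation (0.53, 3.02 and 1.48), Siglec1, a macrophage lectin (1.44, 3.73 and 2.10), and Timp1 (0.77, 1.55 and 1.97). Each of these differences, and that of Gfap, passed the test against CAST and against DBA. Kcng4, a potassium channel subunit that works only in mixed channels, had log2 fold changes of −1.36, 0.28 and −1.06, a fall in C57 and DBA and a small rise in CAST, and its difference from DBA was not called (adjusted p = 0.0793, limma). Inhba (0.02, 2.14 and 0.34) and H2-Ab1 (1.22, 3.13 and 1.44) had a smaller response in C57 than in CAST, and were not called against DBA (adjusted p = 0.103 and 0.634, limma). The interferon genes Ifit1 (−0.25, 5.15 and 0.55) and Irf7 (0.17, 3.15 and 0.45) were likewise not called against DBA (adjusted p = 0.312 and 0.633), and Isg15 (0.01, 3.77 and 1.05) was (adjusted p = 0.0436).

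**Figure D4:**
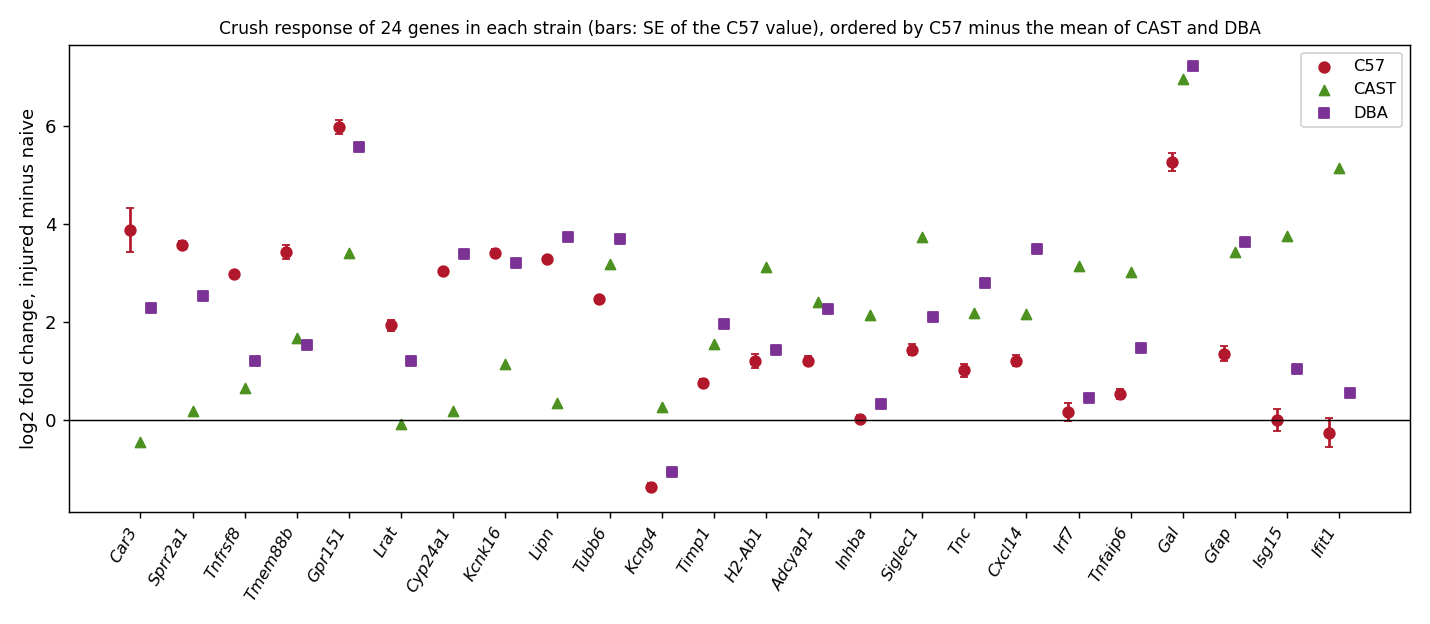
Log2 fold change, injured minus naive, of 24 genes in C57, CAST and DBA ganglia, ordered by the difference between C57 and the mean of the other strains. By that difference Car3 (2.95), Sprr2a1 (2.21) and Tnfrsf8 (2.04) come first, and Gfap (−2.17), Isg15 (−2.40) and Ifit1 (−3.10) come last.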

How the data were processed

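RNA sequencing of dorsal root ganglia gave 24 libraries, 8 of them from C57. Per the labels' protocols, total RNA was extracted with Trizol and made into Illumina libraries. Alignment was with STAR 2.3.0 to mm10, per the submitters' processing notes. No counting tool, annotation or use of strand is given in the sources used here. FPKM values were deposited by the authors for 38215 genes.

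Multiplied by the gene's span in GENCODE M21 (36345 IDs matched, 95.1%), values between 0.5 and 100 reads fell on whole reads within 0.05 in 68.0% of cases, against 10.0% by chance, so the product was used as reads per 1e6 reads (RPM). These reads are an estimate and the main test is on the normalized scale. Tested were genes that reached 10 estimated reads in 4 or more libraries (FPKM of at least 0.1 for the 907 tested IDs without a span), which left out 11172 genes. The fit used R 4.3.3, limma 3.58.1 and statmod 1.5.0 on log2(RPM + 0.5), with 6 group means over all 24 libraries and robust moderated variances that followed the mean. P-values are two-sided, and contrasts were adjusted separately. The fit was also run on simulated data that held no strain differences and no library set apart. That run cannot show how the fit behaves where these are present.

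Named genes are the 15 largest rises and the 15 largest falls among called protein-coding genes with at least 1 RPM and non-overlapping groups. Each list gave 3 called members per direction and its first 3 members. The 10 largest strain differences per direction were taken under the same filters in C57. A gene without a called C57 response could therefore not enter as a strain difference. Genes with 2 tested IDs were left out of the text. Members, lists and tests were chosen with earlier results of these data known. Promoters are from RefSeq (GRCm38.p6), and exon overlaps of at least 50 bases from GENCODE. Alternatives were other pseudocounts, filters and scalings, voom weights, the C57 libraries alone, a replicate block and leaving out libraries.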

Additional observations from a re-analysis of the deposited data

Results flagged for a closer look

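Within groups of 4 libraries, 1 library stood far from the other 3, by Dixon's ratio, in 19 of the 400 groups examined (4.75%), where chance gives about 1 in 20. Injured replicate 1 was the highest of its group for Itga7 (40.3 FPKM), Gadd45a (22.9 FPKM) and Ecel1 (6.92 FPKM), and the lowest for Htr3b (0.235 FPKM). Injured replicate 3 was the highest for Dcn (4.29 FPKM) and H2-Aa (2.70 FPKM) and the lowest for Kcng4 (0.215 FPKM). Injured replicate 2 was the highest for Ndufb3 (3.42 FPKM), and injured replicate 4 was the highest for Oas2 (0.115 FPKM). Naive replicate 1 was the highest of its group for Sprr1a (1.29 FPKM) and Kcnk16 (0.0276 FPKM) and the lowest for Col5a3 (1.04 FPKM). Naive replicate 2 was the highest for Hspa1a (16.3 FPKM), Hspa1b (18.5 FPKM) and Htr3b (0.680 FPKM) and the lowest for Basp1 (2.94 FPKM). Naive replicate 4 was the highest for Ifit1 (3.12 FPKM) and the lowest for Glul (11.6 FPKM). The sum of the myelinating Schwann cell markers was 2240 RPM in injured replicate 1 and 2170 to 2180 in the other injured libraries.

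The crush response of the 24 genes named in the strain comparison differed between C57 and the mean of CAST and DBA by limma's interaction test. It was higher in C57 for Car3 (log2 difference 2.95), Sprr2a1 (2.21), Tnfrsf8 (2.04), Tmem88b (1.82), Gpr151 (1.49), Lrat (1.38), Cyp24a1 (1.25), Kcnk16 (1.24) and Lipn (1.24). It was lower in C57 for the interferon genes Ifit1 (−3.10), Isg15 (−2.40) and Irf7 (−1.63), the glial filament Gfap (−2.17), and the peptides Gal (−1.83) and Adcyap1 (−1.12). It was also lower for Tnfaip6 (−1.72), Cxcl14 (−1.62), Tnc (−1.48), Siglec1 (−1.47), Inhba (−1.22), H2-Ab1 (−1.06), Timp1 (−0.98), Kcng4 (−0.97) and Tubb6 (−0.96). Other genes named in the text differed by this test as well and are not all listed. Among them were Htr3b (0.96, adjusted p = 2.31e-06), Npy1r (−0.65, 4.36e-06), Gap43 (−0.34, 0.00656) and Jun (−0.38, 0.0127, limma).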

How the results depend on the processing

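The counts of at least 2-fold changes depend on the scale of the fold. With a pseudocount of 1 FPKM, 130 genes rose and 17 fell by at least 2-fold, with a pseudocount of 0.1 RPM 1099 and 253, and with voom weights 1495 and 428. Leaving out 1 C57 library at a time gave 4602 to 5219 genes higher and 5077 to 6110 lower, 667 to 710 and 107 to 177 of these by at least 2-fold, and 860 to 1117 genes with a higher and 1275 to 1854 with a lower response in C57 than in the other strains. The deviations of same-numbered injured and naive libraries had correlations of 0.189, −0.302, 0.138 and 0.225, above 0.1 in 3 of 4 pairs, not every library correlated best with its own number, and the labels tie no numbers together. With the replicate block, 5025 genes rose and 5473 fell, no named gene lost or gained a call, and 7 interferon-stimulated genes rose in place of 4. With the C57 libraries fitted alone, which are fewer, 4115 genes rose and 4264 fell, 675 and 132 of these by at least 2-fold. In that fit 3 potassium channels, 9 collagens and 6 proteasome genes rose and 12 oxidative phosphorylation genes fell.

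Of 208 results for named genes, 194 kept their direction and their side of the threshold under each alternative that gave them a value, 14 changed side under at least 1, and none reversed. The filter of 1 RPM gave no value for the genes it removed, and the C57 libraries alone none for strain differences. Beside those given with the results, a Prph call was gained without naive replicate 1 and injured replicate 3 (adjusted p = 0.0096), where the Dcn call was lost (adjusted p = 0.0626). There Avil gained a call (adjusted p = 0.0423) and Lif lost its own (adjusted p = 0.0601). With a pseudocount of 1 FPKM, Dclk1 and Lif lost theirs (adjusted p = 0.0572 and 0.0571, limma). With the C57 libraries alone, so did Dclk1, Piezo2 and Lif (adjusted p = 0.152, 0.0544 and 0.0809, limma). The strain differences of Sprr2a1 and Cyp24a1 were lost with voom weights (adjusted p = 0.504 and 0.647) and the crush call of Tnfaip6 with a pseudocount of 1 FPKM (adjusted p = 0.133), and the cause was not tested. Depth limits genes with few reads, such as Il6, Inhba, Grp and Lipn.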
